A study of Mus musculus with 2 samples.

Results

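The genes described here encode the translation initiation factors (Eif genes) and elongation factors (Eef genes) of the mouse, together with the enzymes that modify the elongation factors. Members were the rows of the deposited gene table whose symbol begins with Eif or Eef followed by a digit. The Eif4e cap-binding family, the Eif2ak kinases and rows named as pseudogenes (-ps) were left out. This gave 59 genes of the 53832 in the table, of which 58 are protein-coding. The exception, Eif2c5, is annotated as a long non-coding RNA, belongs to none of the roles below and had no counts in either library. Eif2s3y, the partner of Eif2s3x on the Y chromosome, was not analysed here.

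The RNA came from small oocytes of ovaries of female mouse embryos that had been kept in culture under 33.3 kPa of external pressure. Cells positive for a Stella-CFP reporter, which marks germ cells through the gene Dppa3, were sorted from the cultured ovaries. The labels put both libraries, replicates 1 and 2, in this 1 group, so all values are those of pressure-treated cultures, with no untreated culture to set them against. The labels do not say whether the replicates came from separate cultures, strains or ages, so the spread between them may be technical.

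Replicate 1 held 5019462 expected counts and replicate 2 held 5274338. All 10 markers of germ cells and oocytes on the list used were expressed, with a median level of 629 TPM in replicate 1 and 654 TPM in replicate 2. The 32 markers of granulosa cells, stroma, endothelium, leukocytes, red cells and surface epithelium together held 219 and 176 counts, or 0.00436% and 0.00334% of the libraries. Of these 32, 6 reached 1 TPM in both libraries. They were Nr5a2 (granulosa cells), Col1a1 and Dcn (stroma), Pecam1 (endothelium), Hbb-bs (red cells) and Krt8 (surface epithelium). The highest of them by mean was Krt8, at 5.03 TPM in replicate 1 and 2.85 TPM in replicate 2. Another 8 were at 0 in both, Fshr (granulosa cells), Tcf21 (stroma) and Ptprc (leukocytes) among them. Levels are in TPM, counts divided by exon length and scaled to a common sum, and a gene counted as expressed at 1 TPM or more in both libraries. Where 2 values are given for a gene they are those of replicates 1 and 2.

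Translation of an mRNA starts when the small ribosomal subunit, loaded with initiator tRNA by eIF2 and held by eIF1, eIF1A, eIF3 and eIF5, is brought to the capped end by the eIF4 factors and scans to a start codon. eIF5B then joins the large subunit, and eEF1A and eEF2 carry the ribosome along the message, delivering each aminoacyl-tRNA and moving the ribosome on. Oocytes store mRNAs and much of their later development runs on regulated translation of that store.

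Of the 59 genes, 55 were expressed (93.2%), against 53.5% of 21722 protein-coding genes and 25.7% of all genes with a known length. At 100 TPM or more in both libraries stood 32 of the 59, where 7.08% of protein-coding genes did. At 1000 TPM or more stood 3 genes, Eef1a1, Eef2 and Eif1, against 0.387% of protein-coding genes. The median over all 59 genes was 130 TPM in replicate 1 and 125 TPM in replicate 2, while that over all protein-coding genes was 2.51 and 2.57 TPM. The median member stood at the 94.4th percentile of protein-coding genes, and 37 of the 59 lay in the top decile. In bulk RNA of sorted cells, fewer cells and less RNA per cell cannot be told apart, so a level is the average over all cells of a library.

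The genes together took 2.48% of the counts in replicate 1 (exact Clopper-Pearson 95% interval 2.47% to 2.5%) and 2.49% in replicate 2 (2.47% to 2.5%). Measured per length, Eef1a1 and Eef2 alone made up 48.4% and 50.7% of the members' summed TPM. Of the 55 expressed genes, 43 differed by less than 10% between the libraries. The 4 genes that were not expressed were Eef1a2, Eif4a3l1 and Eif2c5, each at 0 in both libraries, and Eef1akmt3, with 2 counts in replicate 1 and 0 in replicate 2. A count of 3, the limit that a count of 0 allows, is worth 0.598 CPM (counts scaled to the library total) in replicate 1 and 0.569 CPM in replicate 2. Such limits and intervals cover counting error only.

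**Figure D1:**
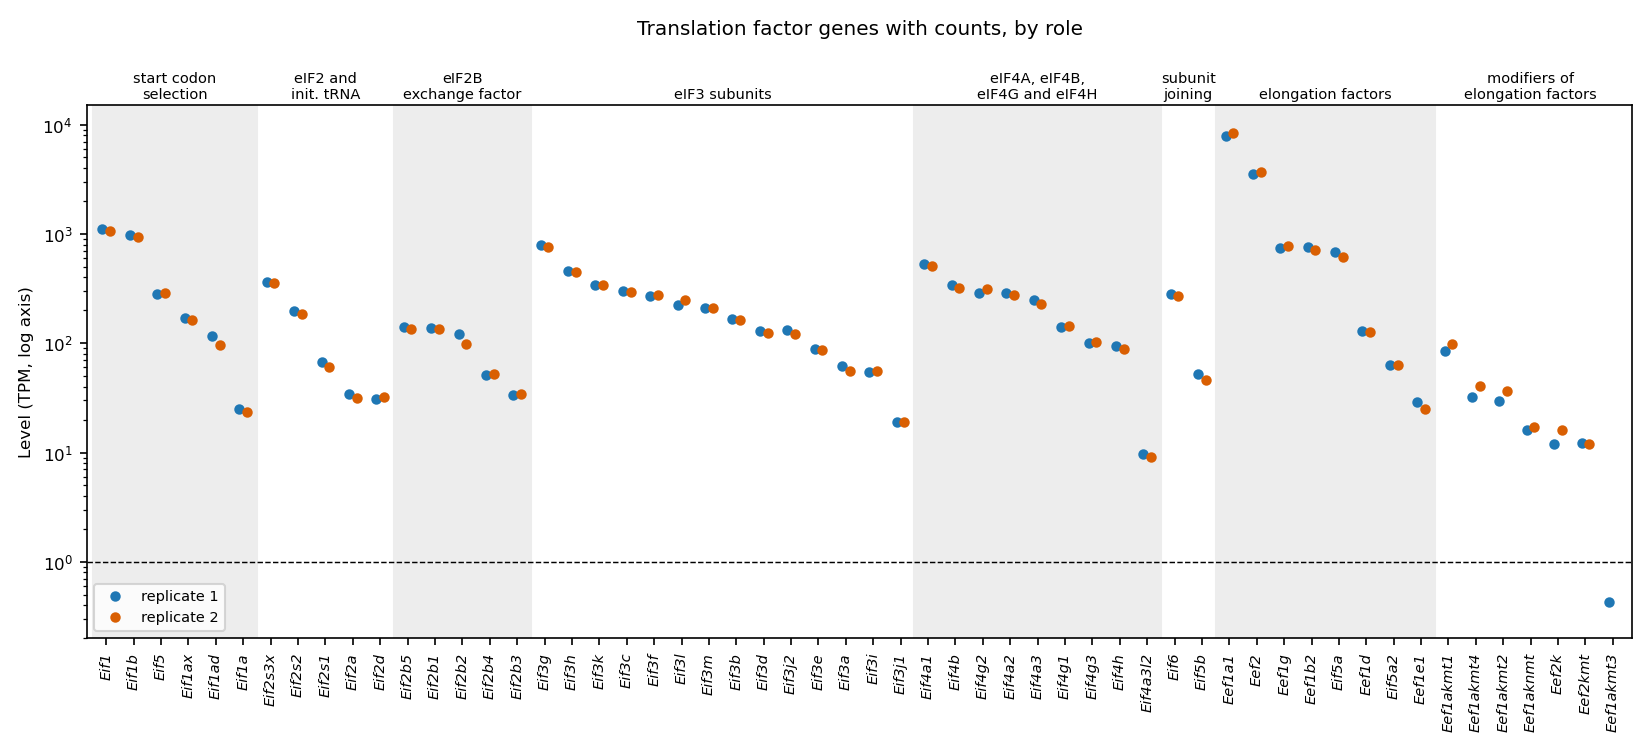
Level in TPM (log axis) of each translation factor gene that had counts, grouped by role and sorted by mean within a role. Points are the 2 libraries and the dashed line marks 1 TPM; Eef1a1 and Eef2 stand above all other genes, and Eef1akmt3 is the one plotted gene below the line, with its replicate 2 value of 0 not drawn.

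The elongation factors had the highest median of the roles, 688 and 612 TPM over 9 genes, of which 8 were expressed. Eef1a1 (chr9:78478449-78489151, GRCm38, minus strand) encodes the form of eEF1A found in most tissues, which brings aminoacyl-tRNA to the ribosome. It stood at 7852 and 8394 TPM and was the fifth most abundant of all protein-coding genes by mean TPM. Eef2 (chr10:81176631-81182498, plus strand), the translocase of elongation, stood at 3500 and 3674 TPM. In both libraries Eef1a1 was thus above Eef2, by 2.24-fold and 2.28-fold in TPM. Without length scaling Eef1a1 had 6736 and 7120 CPM and Eef2 had 4003 and 4155 CPM. The size of this difference thus rests on the length used, while Eef1a1 stayed the higher. The exchange factor subunits that recharge eEF1A with GTP were lower. Eef1g had 736 and 778 TPM, Eef1b2 had 756 and 711 TPM, and Eef1d had 130 and 126 TPM. Eef1a1 exceeded Eef1b2 by 10.4-fold and 11.8-fold. Eif5a, the hypusine-bearing factor that helps the ribosome past stalling sequences, had 688 and 612 TPM. The lowest expressed gene of the role was Eef1e1, which carries an elongation factor's name and encodes a scaffold protein of the aminoacyl-tRNA synthetase complex, at 28.8 and 25 TPM.

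The neuronal and muscle form of eEF1A, Eef1a2, was at 0 counts in both libraries, although its coding sequence is 79.9% identical to that of Eef1a1. Set against the limit of 3 counts per library, Eef1a1 was at least 9421-fold higher in replicate 1 and at least 10464-fold higher in replicate 2. Eif5a stood 10.8-fold and 9.68-fold above its paralogue Eif5a2, which had 63.7 and 63.2 TPM. On the scale of log2(TPM + 1) this difference was 3.33 ± 0.11 (SD, n = 2), against 4.05 when the length of the longest transcript replaced that of all exons merged and 2.26 without length scaling (CPM). Eef1b2 and Eef1d, 2 related exchange subunits, differed by 2.51 ± 0.03, with Eef1b2 higher, by 1.71 with the longest transcript and by 1.16 in CPM.

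The enzymes that modify elongation factors formed the lowest role, with a median of 15.9 and 17.2 TPM over 7 genes, of which 6 were expressed. Eef1akmt1, a lysine methyltransferase of eEF1A, led at 85.0 and 98.9 TPM. Eef1akmt4, another of these methyltransferases, followed at 32.3 and 40.7 TPM. Eef2k, the kinase that phosphorylates eEF2 and so slows elongation, had 11.9 and 16 TPM. Eef2kmt, a methyltransferase of eEF2, had 12.1 and 11.9 TPM, and Eef1akmt3 had at most 2 counts. None of the 7 reached 100 TPM in either library.

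Start codon selection, in which eIF1 and eIF1A hold the ribosome open until the anticodon meets AUG and eIF5 makes eIF2 hydrolyse its GTP, had 6 genes, all expressed, with a median of 227 and 226 TPM. Eif1 had 1110 and 1061 TPM, and its paralogue Eif1b had 978 and 930 TPM. The difference of 0.19 ± 0.01 (log2, SD, n = 2) between these close paralogues was 0.73 with the longest transcript and 1.08 in CPM, so its size rests on the length used while Eif1 stayed the higher. Eif1ax, on the X chromosome, had 171 and 164 TPM. Eif1a, its autosomal paralogue, had 25 and 23.4 TPM and was the lowest gene of the role. The difference of Eif1a minus Eif1ax was -2.74 ± 0.02. Eif1ad, a relative of eIF1A, had 117 and 95.8 TPM, and Eif5 had 284 and 288 TPM. The list used put Eif1ad in this role, and whether it takes part in start codon selection was not tested.

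The genes of eIF2, the GTPase that carries initiator tRNA, and of related tRNA delivery factors had a median of 68.0 and 60.6 TPM over 5 genes, all expressed. The gamma subunit gene on the X chromosome, Eif2s3x, was highest at 363 and 353 TPM, followed by the beta subunit gene Eif2s2 at 198 and 186 TPM. The alpha subunit gene Eif2s1, whose protein is the target of the stress kinases, had 68.0 and 60.6 TPM. By TPM the 3 subunits of one complex thus stood at 3 different levels that did not overlap between the libraries. Without length scaling, Eif2s3x (477 and 457 CPM) and Eif2s2 (461 and 428 CPM) did overlap, and Eif2s1 stayed lower (116 and 102 CPM). The lowest were Eif2a and Eif2d, which can deliver initiator tRNA without eIF2, at 34.4 and 31.8 TPM and at 30.9 and 32.5 TPM. By TPM these 2 overlapped in level. In CPM they did not, with Eif2d (78.3 and 81.5 CPM) above Eif2a (72.5 and 66.2 CPM).

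All 5 genes of eIF2B, the exchange factor that reloads eIF2 with GTP, were expressed, with a median of 121 and 98.7 TPM. Eif2b5, the catalytic epsilon subunit, had 140 and 134 TPM. Eif2b1, the alpha subunit, had 139 and 134 TPM and did not differ from Eif2b5 beyond the spread between libraries. Eif2b4 and Eif2b3 were the lowest, at 50.8 and 52.7 TPM and at 33.8 and 34.5 TPM. Highest and lowest subunit differed 4.01-fold, the narrowest span among the roles in which every gene was expressed.

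The 14 genes of eIF3, the scaffold that keeps the small subunit apart from the large one and recruits the mRNA, were all expressed, with a median of 187 and 186 TPM. Eif3g, an RNA-binding subunit, was highest at 799 and 754 TPM, and Eif3h followed at 457 and 450 TPM. Eif3a, the largest subunit and a core of the complex, had 61.7 and 56.2 TPM, and Eif3i had 54.7 and 56.1 TPM. By TPM Eif3a was thus the higher of these 2 core subunits in both libraries, in replicate 2 by less than the spread between libraries. Without length scaling Eif3a had 185 and 167 CPM and Eif3i had 69.7 and 70.7 CPM. The size of this difference thus rests on the length used. Eif3j1 was lowest, at 19.2 and 18.8 TPM, which gives a span of 40.8-fold by mean TPM within this one complex. That span rests on Eif3j1, whose level is uncertain for the reason given next, and the next lowest gene was Eif3i.

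Eif3j1 has a near-identical single-exon relative, Eif3j2, at 133 and 121 TPM. Their coding sequences are 99.7% identical over 783 aligned bases, and Eif3j1 has 8 exons. The difference of Eif3j1 minus Eif3j2 was -2.68 ± 0.08 (log2, SD, n = 2), and -1.42 in CPM. The authors' counting could have split reads between the 2 genes in either direction, so this difference and the level of each gene are uncertain. A further 19.0% of the Eif3j1 exons lie under exons of Spg11 on the other strand, which held 1197 and 1386 counts.

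The eIF4 helicases, scaffolds and cofactors had a median of 195 and 185 TPM over 10 genes, of which 9 were expressed. Eif4a1, the helicase that unwinds the mRNA leader, was highest at 533 and 509 TPM. Its paralogue Eif4a2 had 291 and 279 TPM, so Eif4a1 was 1.83-fold higher in both libraries. The log2 difference of 0.87 ± 0.002 became 0.34 with the longest transcript and 0.57 in CPM. Eif4a3, a helicase of the exon junction complex, had 248 and 226 TPM. Eif4a1 minus Eif4a3 was 1.13 ± 0.05, and 2.16 in CPM. Of the cofactors that stimulate the helicase, Eif4b had 342 and 321 TPM and Eif4h had 94.4 and 88.0 TPM, a difference of 1.85 ± 0.004 that became 1.04 with the longest transcript. Eif4a3l2, a relative of Eif4a3, was the lowest expressed gene of the set at 9.63 and 9.14 TPM, from about 22 counts in each library, and Eif4a3l1 was at 0.

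Of the eIF4G scaffolds, Eif4g2 was the highest at 291 and 311 TPM. It encodes DAP5, which lacks the binding site for the cap-binding protein eIF4E and acts on a subset of mRNAs. Eif4g1, the main scaffold of cap-dependent initiation, had 141 and 144 TPM, and Eif4g3 had 101 and 102 TPM. Eif4g1 minus Eif4g2 was -1.07 ± 0.05 (log2, SD, n = 2), and Eif4g2 minus Eif4g3 was 1.56 ± 0.06. Eif4g1 exceeded Eif4g3 by 0.49 ± 0.01, but without length scaling it was lower, by -0.11. The start codon of Eif4g2 sets it apart in sequence. The annotated coding sequence begins with GTG, the known non-AUG start of DAP5, while 56 of the 58 coding members begin with ATG. The remaining gene, Eif4g3, begins with GTG in the annotated model used, which has no bases before its first codon, so that start is uncertain. The models used for Eif4a2 and Eif4a3l1, counted among those with ATG, also have no bases before it. For each gene only the transcript with the longest coding sequence was read. The start regions of Eif4g2 (codon at chr7:111081545-111081547, GRCm38, minus strand) and Eif4g1 (chr16:20673902-20673904, plus strand) are shown for comparison, with the first codon in capitals.
Eif4g2: caagccgccaaaGTGgagagt
Eif4g1: gcaccaaatgaaATGaacaaa

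**Figure D2:**
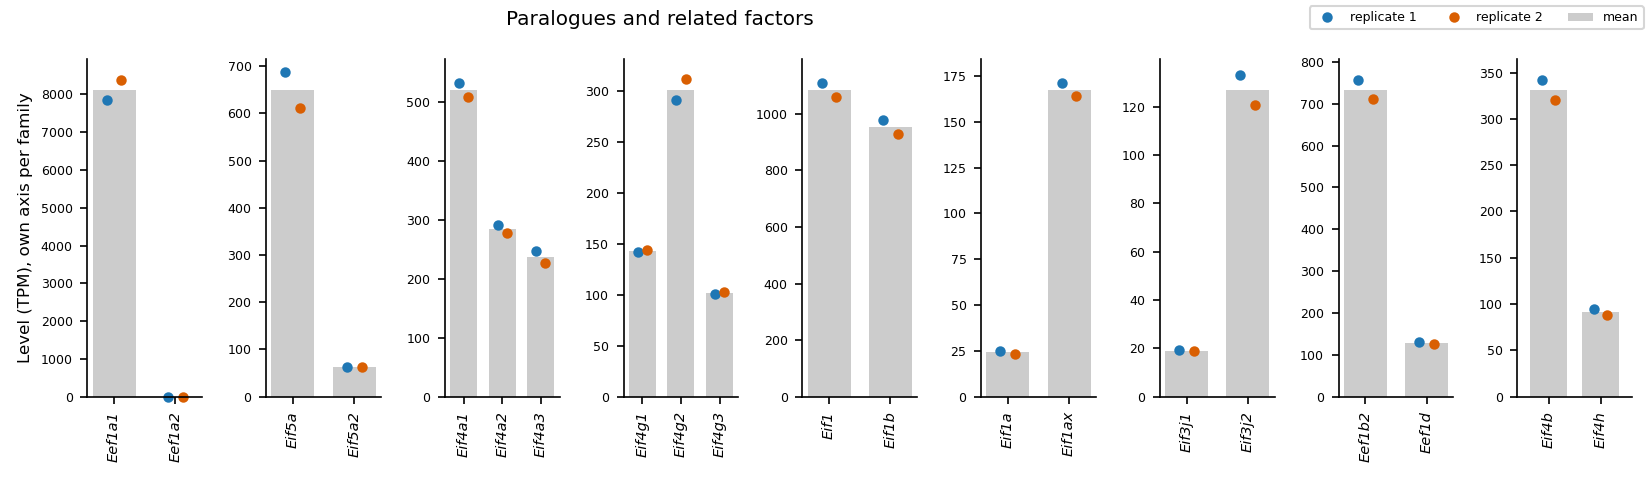
Level in TPM of paralogues and related factors, each family on its own linear axis from 0. Bars are means and points the 2 libraries; Eef1a2 is at 0 beside Eef1a1, and in every family shown the order of the genes is the same in both libraries.

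Subunit joining has 2 genes. Eif6, which keeps the large subunit from joining too early, had 285 and 271 TPM. Eif5b, the GTPase that joins the subunits, had 52.2 and 46.2 TPM, so that Eif6 was 5.65-fold higher by mean TPM. Without length scaling Eif6 had 265 and 249 CPM and Eif5b had 175 and 153 CPM. The size of this difference thus rests on the length used, while Eif6 stayed the higher. Over the 12 paralogue or partner pairs measured, the gene named first was the higher in both libraries in 9, and in 8 in CPM. The order within a pair was fixed by the list and some pairs share a gene, so this count only describes direction. No p is given for the pair differences, since an exact two-sided sign test over 2 libraries cannot go below p = 0.5.

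The factors were then set beside other genes of the translation machinery. Their median lay below that of 82 cytosolic ribosomal protein genes, which was 1075 and 1015 TPM, by a log2 difference of -3.02 ± 0.01 (SD, n = 2). Eef1a1 nevertheless stood above every one of these ribosomal protein genes in both libraries. The factors' median lay above that of 78 mitochondrial ribosomal protein genes (64.9 and 62.0 TPM) by 0.99 ± 0.002. It also lay above that of 38 aminoacyl-tRNA synthetase genes (38.6 and 37.3 TPM), the enzymes that load tRNAs, by 1.72 ± 0.01. Without length scaling the differences were -1.95, 1.71 and 1.19, in the same directions. Genes are not replicates, so no p-value is given.

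**Figure D3:**
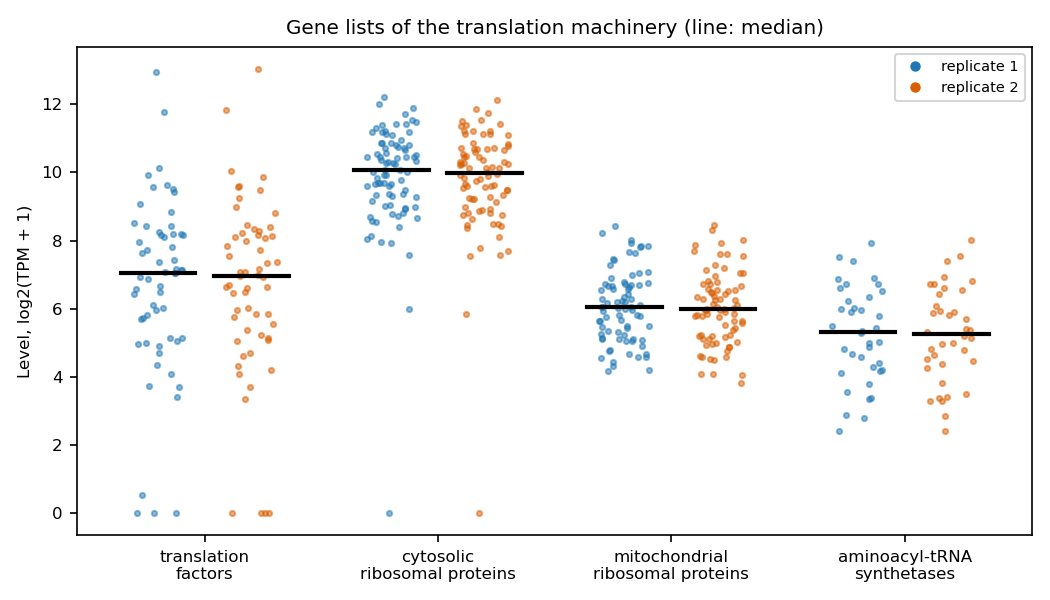
Level as log2(TPM + 1) of every gene in 4 lists of the translation machinery, in replicate 1 and replicate 2, with the median as a black line. The translation factors span the widest range, with medians of 7.04 and 6.97, and the cytosolic ribosomal proteins lie highest, with medians of 10.07 and 9.99.

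Other genes that work with these factors were all expressed. Of 9 genes for termination, recycling and rescue, Etf1, which reads stop codons, was highest at 145 and 146 TPM, and Mcts2 lowest at 44.4 and 45.8 TPM. Among the scanning helicases and the inhibitor of eIF4A, Ddx3x had 258 and 242 TPM and Dhx29 had 32.1 and 32.5 TPM. The 9 genes that build hypusine on eIF5A and diphthamide on eEF2 had a median of 21.5 and 23.6 TPM. Dohh, the last enzyme of hypusine synthesis, was highest at 81.5 and 74.6 TPM, and Dph5 lowest at 5.19 and 3.26 TPM. Eefsec, the elongation factor for selenocysteine, had 98.4 and 99.1 TPM. The mitochondrial translation factors had a median of 31.0 and 28.4 TPM over 9 genes, from Tufm, the mitochondrial counterpart of eEF1A, at 144 and 135 TPM, down to Mtrf1l at 9.05 and 7.52 TPM.

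Many of these genes have processed copies in the genome, and reads that match both can be counted at either. A search of annotated pseudogene transcripts, at 90% identity or more over at least 50% of the copy, found 83 copies of 24 members. Eef1a1 had 19 copies and Eif1 had 17. Counts were assigned to 50 of the 83 copies, in all 1351 counts in replicate 1 and 1349 in replicate 2, equal to 1.08% and 1.03% of the members' own counts. The 19 copies of Eef1a1 held 0.699% and 0.835% of the count of Eef1a1. The share was higher for Eef1g, at 11.2% and 8.44%, mostly from the single copy Gm4366, with 360 and 296 counts at 99.6% identity. For Eif4a1 it was 4.83% and 4.78%, with 192 and 188 counts on Eif4a-ps4. Gm2223, 100% identical to Eif2s3x over 1350 bases, held 136 and 100 counts, where Eif2s3x held 2392 and 2413. The copy of Eif2s2 held 3.3% and 4.81% of its gene's count. The share was highest for Eif4a3l2, at 27.4% and 20.5%, from a copy with 6.2 and 4.57 counts. The levels of Eef1g, Eif4a1, Eif2s3x, Eif2s2 and Eif4a3l2 are thus uncertain. These shares do not bound the error, since reads that match both could have been split in either direction. Sharing of reads between Eif4a3l2 and Eif4a3, which held 909 and 861 counts, was not tested.

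**Figure D4:**
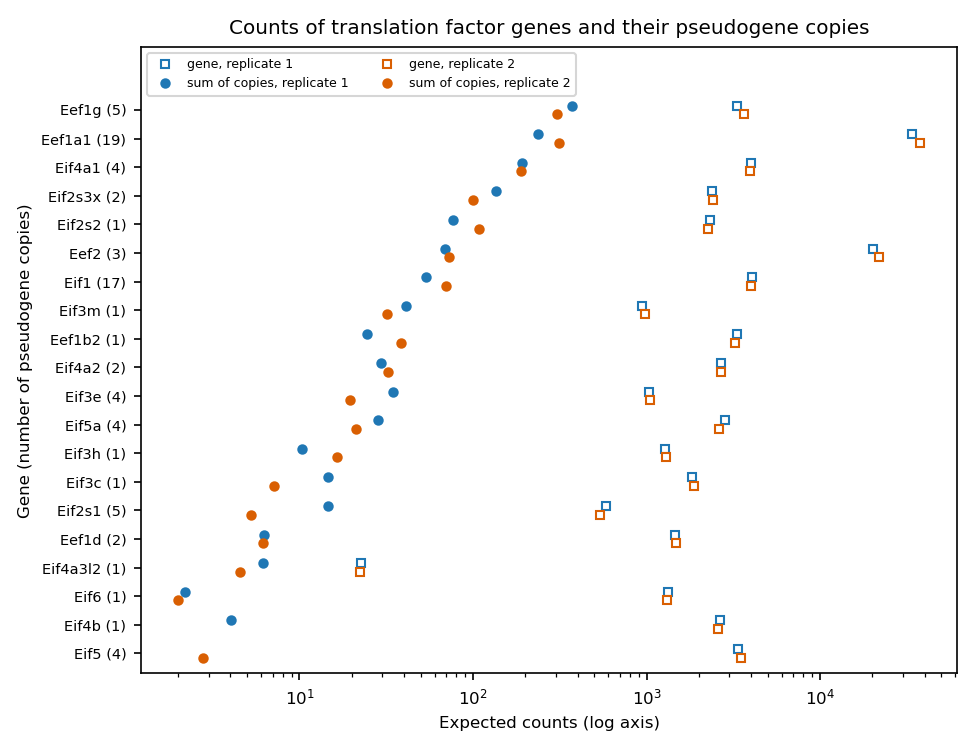
Expected counts (log axis) of each gene that had a pseudogene copy with counts (open squares) and of the sum of its copies (filled points), in replicates 1 and 2, with the number of copies in brackets. Values of 0 are not drawn; the copies lie below their gene in every case, closest in Eif4a3l2 and Eef1g.

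Exons of 16 members overlapped exons of a gene on the other strand, 6 of them over at least 10% of their own length. The library kit keeps the strand, and whether the counting used it is not given in the sources used here. Of the Eif3d exons, 43.3% lie under Gm17638, which had 0 and 1 counts. Exons of Alg1 and Gm15983 together cover 23.0% of those of Eef2kmt, which had 56 and 57 counts. Alg1 held 442 and 456 counts and Gm15983 held 1 count in each library. Exons of Rev1, with 378 and 392 counts, cover 16.8% of those of Eif5b, which had 879 and 809 counts. Exons of Banf1, with 1033 and 974 counts, cover 15.3% of those of Eif1ad, which had 565 and 480 counts. On the same strand, where a directional library cannot tell reads apart, Gm49333 covers 30.7% of the Eef1akmt4 exons. It held 0 counts in both libraries, and Eef1akmt4 held 90 and 118. Naprt, with 1 and 7.22 counts, covers 4.27% of the Eef1d exons on the same strand.

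Many mRNAs of the translation machinery start with a C followed by a run of pyrimidines, the terminal oligopyrimidine (TOP) element, through which the growth-sensing mTOR pathway is known to set their translation. A start was counted as TOP-like when an annotated transcript began with C and at least 4 further C or T bases, read on the transcript's own strand. By GENCODE transcripts 8 of 58 coding members (13.8%) had one, against 24.4% of cytosolic ribosomal protein genes and 4.27% of all protein-coding genes. With RefSeq start sites (GRCm38.p6) the share was 2 of the 45 members listed (4.44%), 13 of 62 ribosomal protein genes and 2.7% of protein-coding genes. The measure depends on the annotated start, and no match says only that no annotated transcript begins with these letters. The first 20 bases are shown for the 5 genes of the 8 with the highest level, with the pyrimidine run in capitals, on GRCm38: Eef1b2 at chr1:63177130-63177149 (plus strand), Eif2s3x at chrX:94212632-94212651 (minus), Eif4a2 at chr16:23107758-23107777 (plus), Eif3f at chr7:108934417-108934436 (plus) and Eif3m at chr2:105017024-105017043 (minus). All 5 lie in the first exon of the transcript. In RefSeq the start of Eif2s3x and Eif3f was also TOP-like, while those of Eef1b2, Eif4a2 and Eif3m were not. In GENCODE, 1 of 2 transcripts had the TOP-like start in Eef1b2, Eif2s3x and Eif3m, and 1 of 5 in Eif4a2.
Eef1b2: CTTTTTTTCCCTCagcgctg
Eif2s3x: CTTTTCTCTCCgagcaagat
Eif4a2: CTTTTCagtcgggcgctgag
Eif3f: CTCTTTCTCggcaagatggc
Eif3m: CTTTTCCggtcggcgtgttt

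The 8 genes with a TOP-like start, the others being Eef1d, Eif2s1 and Eef1aknmt, had a median of 241 TPM and ranged between 16.6 and 734 TPM. The 50 without one had a median of 118 TPM. They included Eef1a1 and Eef2, for each of which 1 annotated transcript was read. Genes of this class may still have a TOP start that the annotation misses, so the 2 medians do not compare TOP with non-TOP mRNAs. Another feature shared with ribosomal protein genes is the hosting of small nucleolar RNAs in introns. A small nucleolar RNA gene lay within the span of 8 members, on the same strand (13.8%). The share was 35.4% of cytosolic ribosomal protein genes and 1.19% of protein-coding genes. Whether each lay in an intron was not checked. The hosts were Eef1b2, Eef2, Eif3a, Eif4a1, Eif4a2, Eif4g1, Eif4g2 and Eif5, with a median of 293 TPM, while the 50 coding members without one had a median of 108 TPM. Eef1b2 and Eif4a2 had both features.

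Last, replicate 1 was set against replicate 2, which shows how far the levels vary between libraries of 1 treatment and not an effect of any condition. Each gene's counts were compared by an exact binomial test (two-sided), and p-values were adjusted over 12182 genes by the method of Benjamini and Hochberg. The test called 7 of the 55 members tested at an adjusted p under 0.05 (12.7%), against 7.84% of all genes tested. Of these, 3 were higher in replicate 1 (background 3.59%) and 4 were lower (background 4.25%). None of the 7 reached 2-fold in either direction, where 0.673% of all genes were called at 2-fold or more, 0.246% higher and 0.427% lower in replicate 1. The test covers counting noise alone, and with edgeR's negative binomial exact test at a preset coefficient of variation (BCV) of 0.1 none was called, nor was any at an unadjusted p under 0.05. The common BCV estimated over all genes was 7.31%.

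The 3 genes higher in replicate 1 were Eif2b2, Eif1ad and Eif5a. Eif2b2 had 395 counts in replicate 1 and 334 in replicate 2, a log2 ratio of 0.31 (edgeR exact binomial test, adjusted p = 0.049). Eif1ad, with 565 and 480 counts, had a ratio of 0.30 (adjusted p = 0.016, same edgeR test). Eif5a had 2827 and 2610 counts and a ratio of 0.18 (adjusted p = 0.00022, same edgeR test). The 4 lower genes held more than 1000 counts each. Eif3l, an eIF3 subunit, had 1404 and 1636 counts, a ratio of -0.15 (adjusted p = 0.048, same edgeR test). Eif4g2 and Eef1a1 each had a ratio of -0.08, with adjusted p = 0.036 and 3.7e-12 by the same edgeR test. Eef2 had a ratio of -0.06 (adjusted p = 0.0019, same edgeR test). The calls of Eif3l, Eif2b2 and Eif4g2 were lost with no filter on low counts, at adjusted p = 0.072, 0.074 and 0.054, and that of Eif3l also with scaling to library totals, at 0.056, and to totals without mitochondrially encoded genes, at 0.054. With these 2 scalings Eef1b2 was called instead, higher in replicate 1 by 0.11 (adjusted p = 0.041 and 0.042, same edgeR test), so that 4 were higher and 3 lower.

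Over the 55 genes the ratios lay between -0.42 and 0.31, and 37 were above 0, with a median of 0.06 where that of all genes was 0.00. Of the 6 expressed modifiers of elongation factors, 5 had a ratio below 0 and none was called. The lowest ratio of all was that of Eef2k, with 152 counts in replicate 1 and 213 in replicate 2, at an adjusted p of 0.069 in the edgeR exact binomial test.

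**Figure D5:**
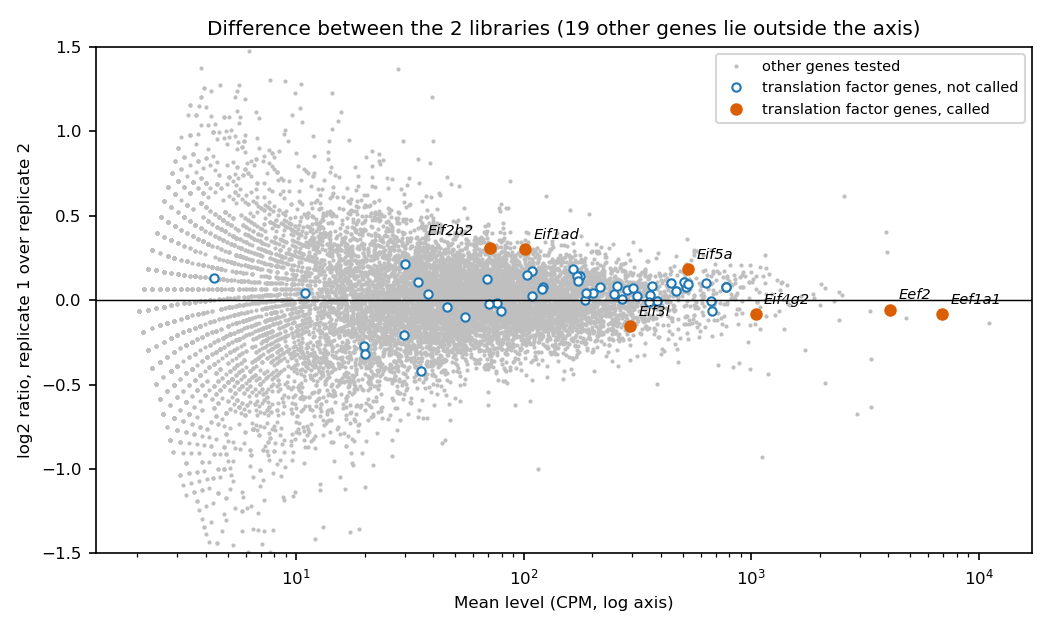
Log2 ratio of replicate 1 over replicate 2 against the mean level in CPM (log axis) for the 12182 genes tested, of which 19 lie outside the drawn range. Filled points are the 7 translation factor genes called, from Eif2b2 at 0.31 to Eif3l at -0.15, and open points the 48 not called.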

How the data were processed

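Per the submitters' processing notes, reads were handled with fastp 0.20.0, STAR 2.7.7a and RSEM (no version stated) on GRCm38, and per the labels' protocols polyadenylated RNA was made into directional libraries with 12 PCR cycles. The authors deposited expected counts per gene, scaled neither for depth nor length; 28 of the 59 members had a count that was not whole in at least 1 library. A further 21 columns that match no sample of the series were not used.

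Gene IDs were matched to GENCODE release M21, which matched 53579 of 53832 IDs and all 59 members; the authors' annotation release is not given in the sources used here. TPM was the expected count per kilobase of merged exons, rescaled to a fixed sum, and log values are log2(TPM + 1), so that fold changes of low genes come out too small. A gene was expressed at 1 TPM or more in both libraries. For the comparison of the libraries, counts were rounded, filtered with filterByExpr, scaled by TMM and tested with binomTest of edgeR 4.0.16. On simulated counts over 12343 genes for this comparison, it recovered 22% of 1.25-fold and 74% of 1.5-fold changes. It recovered 90% of 2-fold and 98% of 4-fold changes, with 4.05% false calls. The simulated counts held counting noise alone (Poisson). The 2 real libraries varied more, with a mean chi-square per degree of freedom of 3.55 over all genes and 4.43 over the members. The simulated rates, that of false calls included, therefore need not hold for the calls made here. Copies were sought with blastn 2.17.0; promoter and transcript starts come from RefSeq and GENCODE.

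The members, role groups, lists and tests were chosen with earlier results of these data known. Named with both values are the 2 highest and 2 lowest genes of each role, the fixed paralogue pairs, called genes and the highest and lowest gene of each related list; other names, such as Eef2k between the libraries, were chosen after their values were seen. Alternatives were CPM, the longest transcript's length, a pseudocount of 0.1, totals without mitochondrially encoded genes, expression thresholds of 5 TPM or of any count, other scalings (DESeq2 1.42.0 size factors or totals), no filter, a 2-fold minimum, a preset BCV, each library left out and, added after the data had been seen, copies summed with their gene.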

Additional observations from a re-analysis of the deposited data

How the results depend on the processing

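No paired analysis was possible because both libraries belong to 1 group. The members' median log2 level was 7.47 in CPM, 7.07 with the longest transcript and 7.16 with totals without mitochondrially encoded genes. The difference from cytosolic ribosomal protein genes was -1.95 in CPM and -3.24 with the longest transcript. That from mitochondrial ribosomal protein genes was 1.71 in CPM, 1.04 with the longest transcript, 1.00 with copies summed and 1.01 with a pseudocount of 0.1. That from aminoacyl-tRNA synthetase genes was 1.19 in CPM, 1.46 with the longest transcript and 1.75 with a pseudocount of 0.1. The 7 members called between the libraries became 4 with no filter on low counts (2 of them lower in replicate 1), and 0 (0 higher, 0 lower) both with the negative binomial test and with a 2-fold minimum. Eif4g1 minus Eif4g3 turned to -0.11 in CPM. Among the results for single genes and pairs, 148 alternatives left the value within the spread between libraries or kept the call, 182 moved it and 12 ended a call; the cause was not tested. Leaving out a library could not be done for the comparison of the libraries, which needs both. Limits are the 2 libraries of 1 treatment, lengths taken from an annotation that may not be the authors', and depth: a gene with fewer than 3 counts cannot be told from one at 0.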
